A study of Homo sapiens with 12 samples.

Results

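The genes described here are 46 regulators of pre-mRNA splicing, chosen by symbol and by no measured value from 58721 genes counted in every library. They comprise 11 SR proteins, the 2 TRA2 proteins, 6 SR protein kinases (CLK1 to CLK4, SRPK1 and SRPK2), 21 heterogeneous nuclear ribonucleoproteins (hnRNPs), 3 polypyrimidine tract-binding (PTB) proteins, the 2 U2AF subunits and SON. The cells were HepG2, an established human hepatocellular carcinoma line, transfected with a non-targeting siRNA (siControl) or with an siRNA against the RNA-binding protein IGF2BP3 (siIGF2BP3) as a transient knockdown. Ribosome profiling gave ribosome-protected fragments (RPF, or footprints) of 28 to 30 nt after 4 min in 100 µg/mL cycloheximide, and each condition also had Input RNA libraries, so that there were 3 libraries in each of 4 groups. The labels attach the footprint protocol to the Input samples as well, so how Input was prepared is not known here, and nothing in them says whether the libraries of a group came from separate cultures. In such bulk libraries, fewer expressing cells and less RNA per cell cannot be told apart.

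SR proteins bind exonic enhancers through an RNA recognition motif and recruit the splicing machinery through a tail rich in arginine and serine. CLK and SRPK kinases phosphorylate that tail, which sets where SR proteins reside and how active they are. Many hnRNPs and the PTB proteins act as silencers of exons, while U2AF recognises the polypyrimidine tract and the 3′ splice site. Many SR and hnRNP genes limit their own output: the protein promotes inclusion of a cassette exon with an in-frame stop (a poison exon) or retention of an intron, and the resulting transcript is degraded by nonsense-mediated decay (NMD) or kept in the nucleus. Several have also left many processed pseudogenes, which are intronless copies of the mRNA elsewhere in the genome.

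Both features can be read in the sequence. Each coding sequence was cut into windows of 29 bases, within the footprint size range, and each window was searched on both strands of 25 hg38 chromosomes. An identical copy elsewhere was present for at least 1 window in 34 of the 46 genes, and for over 50% of windows in 5 of them: 97.4% in HNRNPA3, 90.1% in HNRNPA1, 83.2% in HNRNPC, 81.1% in U2AF1 and 68.4% in HNRNPK. The windows below are the most copied one of each of 6 genes whose footprints were spread over copies. Every base of each window is shared with a copy, so none is set in capitals, and a footprint from it cannot be placed on the gene by its sequence.
HNRNPA3: aggatatgatggttacaatgaaggaggaa
HNRNPC: ggctgaggaaggagaggatgacagagaca
HNRNPK: aaagatctagaaacactgatgagatggtt
U2AF1: ccgtgaggaagatgcggaaaaggctgtga
SRSF3: aggcaatcttggaaacaatggcaacaaga
SRSF6: ggtcacgaagtaggagtcgcaggagcagc
These lie in coding exons at chr2:177217805-177217833 (plus strand), chr14:21211249-21211277 (minus), chr9:83977716-83977744 (minus), chr21:43094755-43094783 (minus), chr6:36596804-36596832 (plus) and chr20:43460532-43460560 (plus). The HNRNPA3 window recurred at 9 other positions (7 in its own copies), that of HNRNPC at 8, those of HNRNPK and SRSF3 at 4 each, that of U2AF1 at 3 and that of SRSF6 at 2. Identity between the genes themselves was rarer. A window shared by CLK1 (chr2:200860156-200860184, minus) and CLK4 (chr5:178617375-178617403, minus), and one shared by SRSF2 (chr17:76737089-76737117, minus) and SRSF8 (chr11:95067270-95067298, plus), were among 6 such windows in each pair, and HNRNPH1 shared 43 windows with HNRNPH2.
CLK1 and CLK4: tagaggatgatgaggagggtcacctgatc
SRSF2 and SRSF8: ccctcaaggtggacaacctgacctaccgc

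The GENCODE annotation lists 26 cassette exons in which an NMD transcript of these genes ends its reading frame, spread over 19 genes, and 24 of them lie in the exons that were counted. Those of 4 genes named in the tests below are shown, with the stop codon in capitals and 13 bases on each side.
SRSF6, exon of 268 bases, chr20:43459289-43459317 (plus): agccttttgccatTAGacgcagggtgatg
TRA2A, exon of 301 bases, chr7:23522276-23522304 (minus): aagattggtcagaTAGaagcacttgaata
TRA2B, exon of 276 bases, chr3:185931759-185931787 (minus): gctcaggaataagTGAagctgaaatttga
HNRNPH1, exon of 134 bases, chr5:179621938-179621966 (minus): ggaaagcgacctgTAAaacaagaaccaag
Such exons were included in the counts of both assays, so a gene's Input level holds productive and NMD transcripts together. Neither CLK1 nor SRSF5 has an annotated exon of this kind, although CLK1 has 8 retained-intron transcripts listed and SRSF5 has 8. Over all 46 genes, 38 have an annotated NMD transcript and 37 a retained-intron transcript.

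Library totals ran from 11219750 to 31510601 counts, and all 46 genes passed the low-count filter of every comparison. All 10 hepatocyte markers exceeded 1 CPM (counts scaled to the library total) in every group, with a summed level of 52169 to 57453 CPM over the Input libraries and 82702 to 92280 CPM over the RPF libraries. Of 12 markers of other cell types, LYZ, CD68 and PECAM1 exceeded 1 CPM in every group, and PTPRC, CD3E, COL3A1, DCN and HBB were at or near 0. Both sums were lower in siIGF2BP3 than in siControl Input, at 52169 to 52275 against 56805 to 57453 CPM for the hepatocyte markers and 3469 to 3561 against 3702 to 3829 CPM for the others, and their part in the results was not tested. IGF2BP3 itself was measured at 133, 129 and 127 CPM in siControl Input and 103, 97.9 and 105 CPM in siIGF2BP3 Input, and at 74.6, 78.1 and 77.7 CPM against 21.9, 28.0 and 25.2 CPM in RPF. The knockdown group therefore kept 78.7% of the mRNA level and 32.8% of the footprint level of siControl, and the groups did not overlap in either assay. Replicates 2 and 3 of siControl RPF differed by less than the sampling noise (mean chi-square per gene 0.941, against 2.80 and 2.09 for the other pairs of that group) and were counted as 1 sample in means and SDs. Replicate 1 of siIGF2BP3 RPF stood apart from the other two of its group (19.9 and 21.5, against 1.15 between those), so the calls among the 46 genes are given with and without it; without it the log2 fold change of IGF2BP3 in RPF was −1.53 ± 0.05, against −1.59 ± 0.08 with all libraries.

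Without knockdown, the genes spanned a wide range of mRNA level and of footprints per mRNA. Their median Input level was 205 CPM, against 38.1 CPM over the 9356 protein-coding genes with at least 5 CPM in both siControl assays. Per kilobase of counted exon, the Input level was highest for HNRNPA1, an abundant exon silencer, at 475 CPM per kb. It was followed by HNRNPA3 at 197, HNRNPA2B1 at 165, HNRNPC at 138 and HNRNPK at 114 CPM per kb. SRSF11 was the highest SR protein at 96.4 CPM per kb, and the low end held CLK4 (4.19), CLK3 (3.95) and PTBP2, the PTB protein known from neurons (1.35 CPM per kb). HNRNPA1, HNRNPA2B1 and HNRNPA3 together took 33.6% of the summed Input CPM of the 46 genes.

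Footprints per mRNA were taken as the ratio of mean RPF CPM to mean Input CPM in siControl. The scale of this ratio is not fixed by the data, because each assay is scaled to its own total, so it is read against other genes. The median ratio was 0.922 over the 46 genes and 0.930 over the protein-coding genes, with 23 genes on each side of the latter. In edgeR's test of RPF against Input, 44 of the 46 passed an adjusted p of 0.05, 21 with more RPF and 23 with less, but so did 92.2% of all 20595 genes tested (55% with more and 37.2% with less), so the sizes are described instead.

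The SR protein kinases had few footprints for their mRNA. All 6 lay below the protein-coding median, from 0.111 in CLK1 to 0.778 in SRPK1, with a median ratio of 0.348. CLK1, which phosphorylates SR proteins in the nucleus, was at 305, 306 and 315 CPM in Input and 33.4, 35.3 and 35.4 CPM in RPF, and 1.20% of the protein-coding genes had a lower ratio. CLK4, its closest relative, went from 33.2 ± 2.89 CPM (SD, n = 3) in Input to 10.2 ± 0.233 CPM (SD, n = 2) in RPF, a ratio of 0.307. SRPK2, a kinase that acts on SR proteins in the cytoplasm, had a ratio of 0.239.

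SR proteins ranged from 0.159 to 1.97 around a median ratio of 1.14. SRSF2, which carries both constitutive and regulated exon recognition, was at 146, 146 and 143 CPM in Input and 294, 270.2 and 286 CPM in RPF, and SRSF7 had nearly the same ratio (1.97). SRSF11 was the opposite case, with 847, 762 and 839.7 CPM in Input and 131, 129 and 126 CPM in RPF. SRSF4 also had few footprints, with a ratio of 0.271. The TRA2 proteins, which bind GAA-rich enhancers, both lay high, at 1.87 for TRA2A and 1.60 for TRA2B.

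The hnRNPs held both extremes. HNRNPA1 was at 2273, 2451 and 2533 CPM in Input but 122, 123 and 121 CPM in RPF, a ratio of 0.0504, and HNRNPA3 had 0.140. HNRNPAB was at 47.0, 54.0 and 51.1 CPM in Input and 211, 204 and 203 CPM in RPF, a ratio of 4.09, and it was followed by HNRNPA0 at 2.99 and HNRNPH2 at 1.85. For each of these genes the 3 libraries of one assay lay wholly apart from those of the other. Within the PTB family, PTBP1, the widely expressed member, had a ratio of 2.84 and its paralog PTBP3 one of 0.299. Of the 2 different subunits of the U2AF heterodimer, the large subunit U2AF2 had 2.09 and the small subunit U2AF1 0.449, with U2AF1 counts shared with a duplicate entry. The 16 genes with the 8 highest and 8 lowest fitted ratios passed the test in the same direction under every alternative run. They were picked by that same ratio, and 92.2% of all genes passed with all libraries, so this is no separate support.

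**Figure D1:**
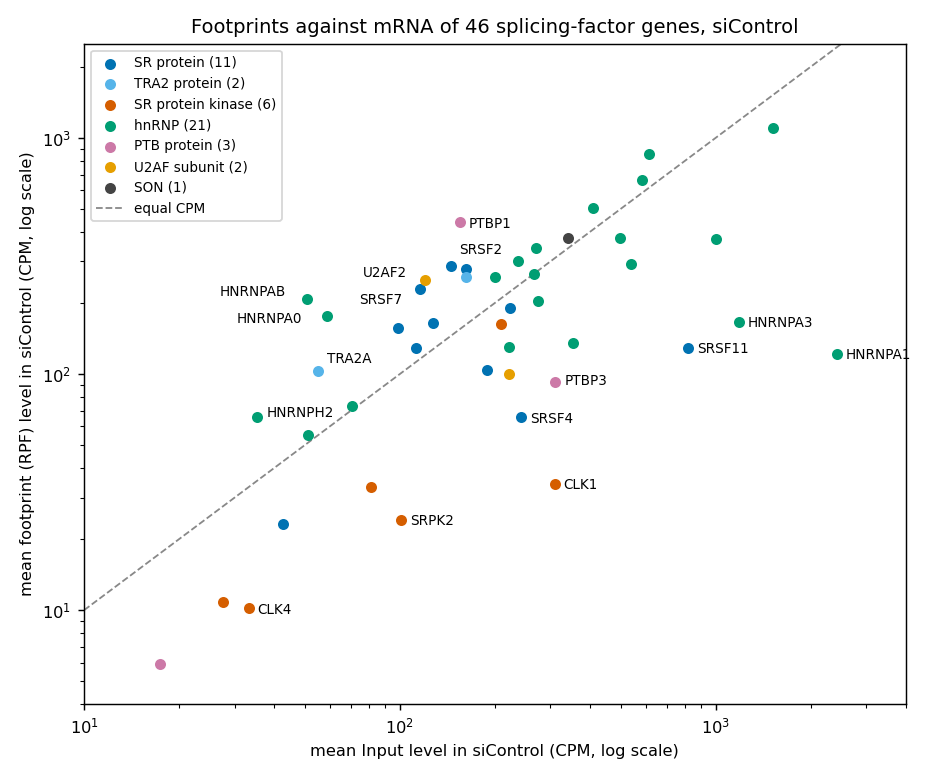
Mean siControl level in RPF (vertical, CPM, log scale) against that in Input (horizontal, CPM, log scale) for each of the 46 genes, coloured by role, with siControl RPF replicates 2 and 3 counted as 1 sample. The dashed line marks equal CPM; the 6 kinases lie below it, and the 16 labelled genes have the 8 highest and 8 lowest ratios, from 0.0504 in HNRNPA1 to 4.09 in HNRNPAB.

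Footprints come mainly from the coding sequence, while the counts cover all exons of a gene. Over the 9356 protein-coding genes the median ratio was 0.701 among the 2339 with the lowest coding share of the transcript and 1.15 among the 2339 with the highest (Spearman's rho 0.21 across genes, as a description). Over the 46 genes, which share the same libraries, rho was −0.06. The share used was that of the 1 transcript per gene marked as canonical in GENCODE. It can differ widely from the coding share of the counted exons (76.2% against 6.48% in U2AF1), which was not set against the ratio.

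Counts on copies moved some of these ratios. The files list 137 pseudogenes or duplicates for 23 of the 46 genes, found by name as the symbol followed by P and a number, plus the U2AF1 duplicate. Copies named otherwise or not named after the gene are outside this count: SYNCRIP and SRSF10 have no copy in it, although 44.4% and 34.7% of their windows recur elsewhere. In siControl Input only U2AF1 had under 80% of the summed counts of gene and copies on the gene itself (50.2%), whereas in siControl RPF this held for 8 genes. HNRNPA1 kept 17.9% of its summed footprints, with 74 listed copies of which 57 reached 1 CPM. HNRNPA3 kept 28.9%, U2AF1 49.99%, HNRNPC 52.7% and HNRNPK 64.0%. HNRNPL, SRSF3 and SRSF6 kept 69.9%, 73.2% and 76.4%. Across the 46 genes, the percentage of copied windows and the percentage of RPF counts on the gene had a Spearman's rho of −0.73, as a description over genes from the same libraries.

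Single copies could hold many footprint counts. HNRNPA1P10, a processed pseudogene at chr19:11666069-11667030 (minus), had siControl levels of 13.5, 14.1 and 14.5 CPM in Input and 87.2, 87.2 and 87.4 CPM in RPF. HNRNPKP4 at chr3:96349554-96350939 (plus) was at 0.719, 0.608 and 0.159 CPM in the same Input and 191, 185 and 188 CPM in the same RPF libraries. The U2AF1 duplicate at chr21:6484623-6499261 (minus), which GENCODE types as an artifact, held 97.8, 101 and 103 CPM in siControl RPF against 97.7, 101 and 103 CPM on U2AF1 itself. When the counts of copies were added, the ratios of 4 genes rose by over 1.5 times. That of HNRNPA1 went from 0.0504 to 0.276, and to 0.321 with intronless copies annotated as genes. HNRNPA3 went from 0.140 to 0.472, HNRNPC from 0.369 to 0.694 and HNRNPK from 1.14 to 1.77. HNRNPA1 and HNRNPA3 stayed below the protein-coding median of 0.930, to which no counts of copies were added. CLK1 and SRSF11 have no copies listed by name. Which copy a footprint came from was not tested.

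**Figure D2:**
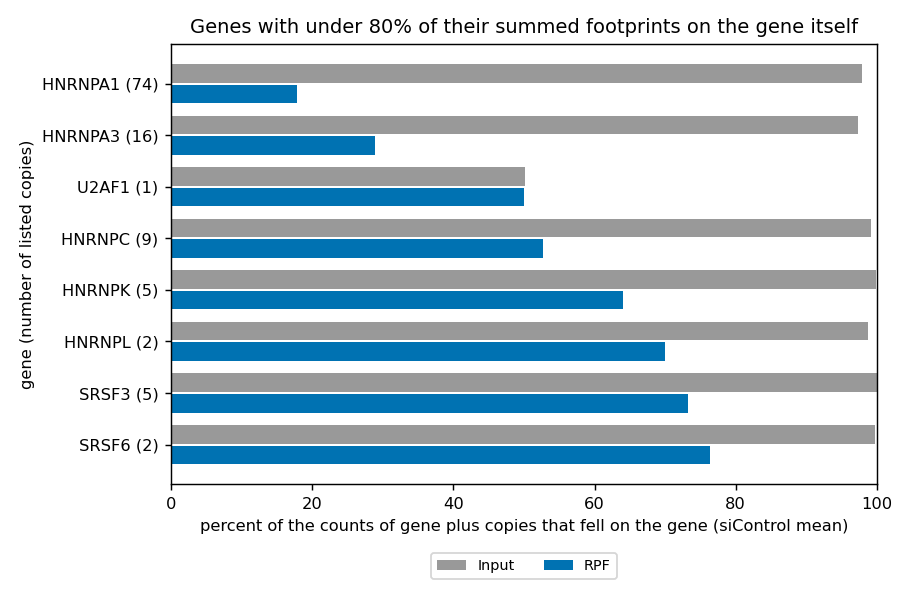
Percentage of the summed siControl counts of a gene and its listed copies that fell on the gene itself, in Input (grey bars) and RPF (blue bars), for the 8 genes below 80% in RPF, with the number of listed copies in parentheses. In RPF the bars run from 17.9% for HNRNPA1 to 76.4% for SRSF6; in Input only U2AF1 falls below 80%.

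After IGF2BP3 knockdown the mRNAs of several SR proteins and their partners rose, and those of a few hnRNPs fell. In Input, 8 of the 46 genes passed an adjusted p of 0.05 in edgeR's quasi-likelihood test (17.4%, against 5.96% of all 14759 genes tested). The 5 higher ones (4.05% of all genes were called higher) were SRSF2, SRSF5, SRSF6, TRA2A and CLK1, and the 3 lower ones (1.9% of all genes) were HNRNPA2B1, HNRNPA3 and HNRNPK. By role, 3 of 11 SR proteins, 1 of 2 TRA2 proteins and 1 of 6 kinases were called higher and 3 of 21 hnRNPs lower, with 16 of the 21 hnRNPs below 0. No PTB protein, U2AF subunit or SON was called. An unadjusted p under 0.05 was found for 2 of the 3 PTB proteins and for 3017 of all 14759 genes tested. The median log2 fold change was −0.0011 over the 46 genes and 0.0023 over all genes tested.

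Of the SR proteins, SRSF5 had Input levels of 112, 109 and 117 CPM in siControl and 141, 136 and 132 CPM in siIGF2BP3, so the groups did not overlap. Its log2 fold change was 0.23 ± 0.05 (SE) with an adjusted p of 0.00467 in edgeR. SRSF6 was at 128, 124 and 130.4 against 154, 145 and 148 CPM, again without overlap (log2 fold change 0.18 ± 0.05, adjusted p = 0.0238 in edgeR). Both activate exons by binding enhancer sequences in them. SRSF2 rose from 146, 146 and 143 to 159.7, 166 and 175 CPM (log2 fold change 0.16 ± 0.05, adjusted p = 0.0425 in edgeR). Its counted exons overlap those of MFSD11 on the opposite strand over 36.7% of their length, and whether strand was used in counting is not given in the sources used here.

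TRA2A, a sequence-specific activator of exon inclusion, had Input levels of 54.1, 56.6 and 54.8 CPM in siControl and 65.2, 63.4 and 71.5 CPM in siIGF2BP3 (log2 fold change 0.22 ± 0.06, adjusted p = 0.0250 in edgeR). CLK1 was at 305, 306 and 315 CPM against 367, 382 and 371 CPM (log2 fold change 0.23 ± 0.04, adjusted p = 0.00188 in edgeR). Neither gene overlapped between the groups. Other members of these families were not called: TRA2B was at 0.11 on the log2 scale (adjusted p = 0.131), CLK2 at 0.18 (adjusted p = 0.206) and SRPK1 at −0.02 (adjusted p = 0.849), all in edgeR. TRA2B and CLK2 were also higher in every siIGF2BP3 Input library than in any siControl Input library, while SRPK1 overlapped.

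Among the hnRNPs, HNRNPK, which binds C-rich RNA, fell from 563, 592 and 594 to 510.1, 532 and 509.5 CPM in Input (log2 fold change −0.22 ± 0.04, adjusted p = 0.00276 in edgeR). HNRNPA3 was at 1175, 1168 and 1218 against 1134, 1079 and 1077 CPM (log2 fold change −0.16 ± 0.04, adjusted p = 0.0268). HNRNPA2B1 was at 1453, 1549 and 1575 against 1438, 1414 and 1415 CPM (log2 fold change −0.15 ± 0.05, adjusted p = 0.0494, both in edgeR). In all 3 the siIGF2BP3 libraries lay below every siControl library. HNRNPA1, the relative with the highest Input level per kb, was at −0.15 with an adjusted p of 0.0706 in edgeR.

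CLK1, SRSF5 and HNRNPK were called under all 13 alternatives. The other 5 were lost in some alternatives. SRSF2 was not called with DESeq2, with RLE factors or with no filter, and HNRNPA2B1 was not called with a minimum mean of 5 CPM or among protein-coding genes only. Single libraries also mattered, for all genes as well as for the 46. With all libraries 8 of the 46 and 879 of all 14759 genes were called. Without siControl Input replicate 3 these were 3 of the 46 and 444 of 15074. They were 3 and 487 of 14997 without siIGF2BP3 Input replicate 3, and 5 and 634 of 15003 without siIGF2BP3 Input replicate 2. The highest adjusted p over the alternatives, in edgeR or DESeq2, was 0.0894 for SRSF6, 0.165 for TRA2A and 0.167 for HNRNPA3. It was 0.209 for SRSF2 and 0.244 for HNRNPA2B1 over the same edgeR and DESeq2 alternatives.

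**Figure D3:**
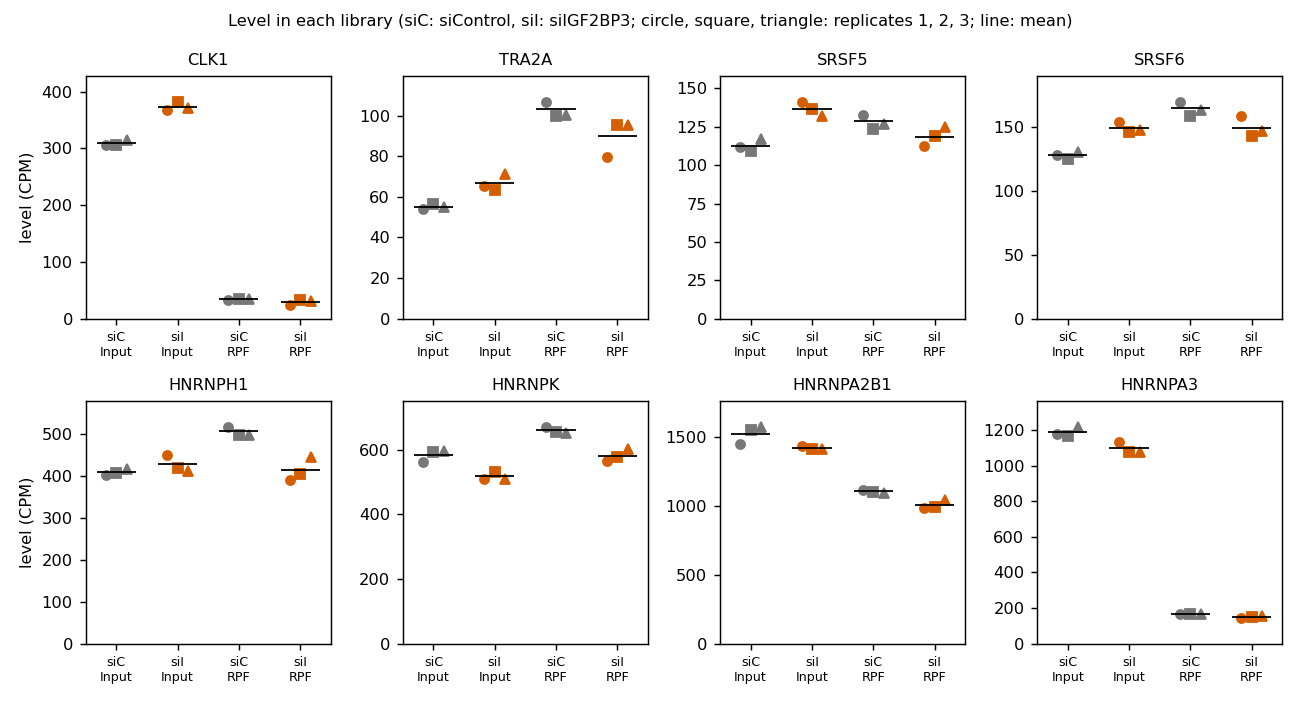
Level in each library (vertical, CPM) of 8 genes in siControl (siC, grey) and siIGF2BP3 (siI, orange) Input and RPF, with circles, squares and triangles for replicates 1, 2 and 3 and a line at the group mean. CLK1, TRA2A, SRSF5 and SRSF6 are higher in every siIGF2BP3 Input library, while HNRNPK, HNRNPA2B1 and HNRNPA3 are lower there, and no siIGF2BP3 RPF mean lies above its siControl RPF mean.

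Footprints of these genes lay mostly below siControl. In RPF, 40 of the 46 genes had a log2 fold change below 0, against 9632 of all 20192 genes tested, and the median was −0.09 over the 46 and 0.01 over all genes. The 46 genes took 1.02% to 1.05% of the counts of a siControl RPF library and 0.931% to 0.964% of a siIGF2BP3 RPF library. Protein-coding genes as a whole took 86.0% to 86.2% and 82.7% to 84.9% of the same libraries, and of the protein-coding counts alone the 46 genes took 1.18% to 1.21% and 1.10% to 1.15%. In Input their share of all counts was 1.50% to 1.56% in siControl and 1.51% to 1.55% in siIGF2BP3.

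With all libraries, 13 of the 46 genes had an unadjusted p under 0.05 in RPF, as did 3251 of all 20192 genes tested. Of the 46, 1 was called, as lower (1.66% of all genes were called and 0.649% called lower). It was HNRNPH1, a G-tract-binding hnRNP, at 517, 498 and 497 CPM in siControl and 390.3, 404 and 445 CPM in siIGF2BP3, without overlap (log2 fold change −0.27 ± 0.05, adjusted p = 0.0439 in edgeR). Its adjusted p was 0.219 in edgeR with siControl replicates 2 and 3 summed as 1 library. None of the 46 and 14 of all 20785 genes were then called, and 7 of the 46 had an unadjusted p under 0.05. DESeq2 with all libraries called 4 of the 46 and 667 of all 20192 genes. Leaving out any RPF library other than siIGF2BP3 replicate 1 also left none of the 46 called in edgeR, with 11 to 70 of all genes called. Of the 46, 7 to 13 were then at an unadjusted p under 0.05. The share of all genes at that p was not counted in these reduced fits.

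Without siIGF2BP3 RPF replicate 1, 22 of the 46 genes were called (47.8%, against 16.5% of all 20615 genes tested), of which 21 were lower (8.57% of all genes) and 1 was higher (7.97%). The siIGF2BP3 libraries left in that fit differed by little more than sampling noise (mean chi-square per gene 1.15, against 0.941 for siControl replicates 2 and 3). Its SEs and p-values may therefore measure technical spread only. With siControl replicates 2 and 3 also summed, 18 of the 46 and 3015 of all 20898 genes were called. All 18 were lower, and TRA2A, HNRNPF, HNRNPUL2 and PTBP3 were not called. Before that summing, the 21 lower genes included 13 of the 21 hnRNPs: HNRNPA0, HNRNPA2B1, HNRNPA3, HNRNPC, HNRNPF, HNRNPH1, HNRNPH2, HNRNPH3, HNRNPK, HNRNPL, HNRNPM, HNRNPU and HNRNPUL2. They also included SRSF1, SRSF2, SRSF6 and SRSF7 of the SR proteins, TRA2A, CLK3, PTBP1 and U2AF2. The counted exons of SRSF1 and HNRNPUL2 overlap another protein-coding gene on the same strand over 56.6% and 44.1% of their length, so their counts are uncertain. The changes were small, and the lowest was that of HNRNPM, at 349, 335 and 337 CPM in siControl and 325, 276 and 293 CPM in siIGF2BP3 (log2 fold change −0.26 ± 0.03, adjusted p = 0.000206 in edgeR without replicate 1). HNRNPH1 was at −0.25 with an adjusted p of 0.000947, and HNRNPA0 at −0.25 with 0.000131, in the same edgeR fit. PTBP3 was the one higher gene, at 93.2, 91.9 and 93.1 against 98.7, 101 and 99.0 CPM (log2 fold change 0.11 ± 0.03, adjusted p = 0.0268 in edgeR), and its groups did not overlap; with siControl replicates 2 and 3 also summed its adjusted p was 0.0541 in edgeR.

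The library that stood apart did not move all genes alike. SRSF2 footprints were at 294, 270.2 and 286 CPM in siControl and 402, 254 and 249 CPM in siIGF2BP3, so that replicate 1 was the highest of the 6 libraries and replicates 2 and 3 were the lowest. Its log2 fold change was 0.11 ± 0.19 (adjusted p = 0.842) with all libraries and −0.17 ± 0.03 (adjusted p = 0.00310) without replicate 1, both in edgeR. HNRNPAB, HNRNPLL, PTBP2, SRPK1 and SRSF9 changed sign as well, and the other 40 genes kept theirs. The number below 0 was 40 with all libraries and 42 without replicate 1, and the median was −0.11 without it.

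**Figure D4:**
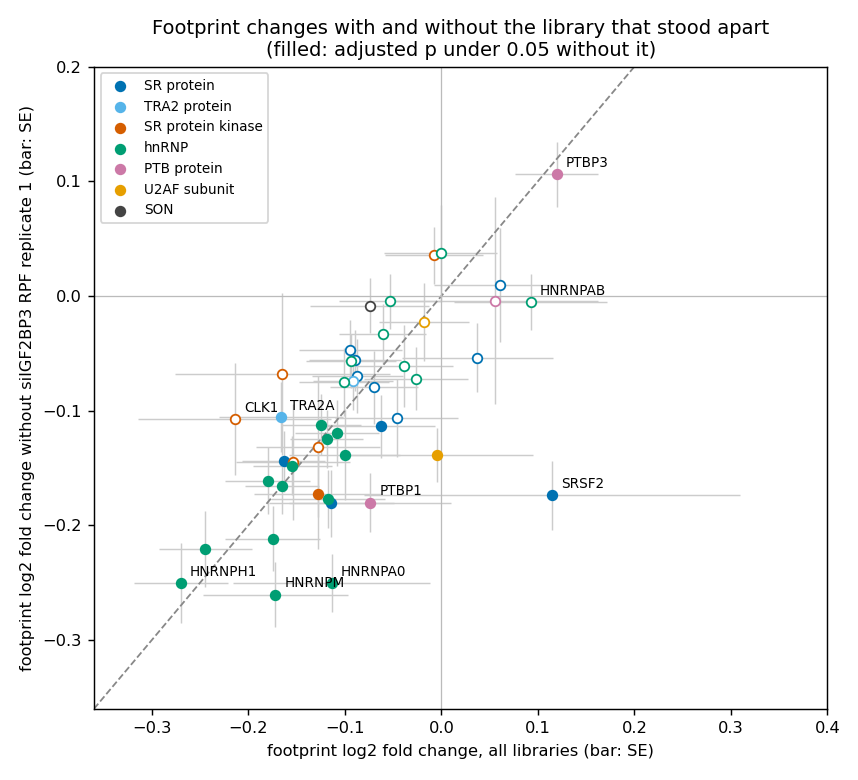
Footprint log2 fold change of the 46 genes without siIGF2BP3 RPF replicate 1 (vertical) against that with all libraries (horizontal), with SE bars, coloured by role and filled where the adjusted p without that library is under 0.05. Most points lie near the dashed line of equal values and below 0 on both axes, 22 are filled, and SRSF2 lies farthest from the line (0.11 with and −0.17 without the library).

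The change in footprints relative to mRNA (translation efficiency, TE) was tested as an interaction term, with every library in 1 model. It was negative for 32 of the 46 genes, with a median of −0.08 on the log2 scale against 0.00 over all 13395 genes tested. Called genes numbered 5 (10.9%, against 2.21% of all genes), all lower (1.42% of all genes were called lower and 0.791% higher): CLK1, TRA2A, SRSF5, SRSF6 and HNRNPH1. The first 4 had been called higher in Input and were not called in RPF, and for HNRNPH1 footprints fell while the Input groups overlapped. The ratio of mean RPF to mean Input CPM was lower in siIGF2BP3 than in siControl for 42 of the 46 genes, the exceptions being HNRNPAB, PTBP3, SRSF8 and SRSF9. How many of all genes had a lower ratio was not counted. This ratio moves with the library totals, and protein-coding genes took 82.7% to 84.9% of siIGF2BP3 RPF counts against 86.0% to 86.2% in siControl RPF. The TE test, with 32 of the 46 below 0, was scaled within each assay.

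CLK1 footprints were at 33.4, 35.3 and 35.4 CPM in siControl and 23.8, 33.0 and 31.3 CPM in siIGF2BP3, a log2 fold change of −0.21 ± 0.10 against 0.23 in Input. The TE difference was −0.43 ± 0.10 (adjusted p = 0.0283 in edgeR), and −0.33 with an adjusted p of 0.00168 without siIGF2BP3 RPF replicate 1, which was the lowest CLK1 library. TRA2A footprints were at 107, 99.9 and 100.3 against 79.4, 95.3 and 95.5 CPM, and its TE difference was −0.39 ± 0.09 (adjusted p = 0.0290 in edgeR) with all libraries and −0.32 without that one. In both genes the footprint groups did not overlap and lay in the direction opposite to Input. The same held for SRSF1, SRSF10, SRSF11, TRA2B, CLK2, SRPK2 and HNRNPDL, which were not called in TE with all libraries. These CPM carry no TMM factors, and overlap between groups was not counted over all genes. The pattern was therefore not read as a TE change in the genes that were not called.

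SRSF5 footprints were at 132, 123 and 127 CPM in siControl and 112, 119 and 125 CPM in siIGF2BP3, and those of SRSF6 at 169, 158 and 163 and 158, 143 and 146 CPM, so both overlapped between the groups. The TE difference was −0.32 ± 0.07 for SRSF5 (adjusted p = 0.0256 in edgeR) and −0.30 ± 0.08 for SRSF6 (adjusted p = 0.0474 in edgeR). For HNRNPH1 it was −0.29 ± 0.07 (adjusted p = 0.0395 in edgeR), with Input at 403, 406 and 416 CPM in siControl and 449, 419.6 and 412 CPM in siIGF2BP3. Adding the counts of listed copies left the same 5 genes called, with SRSF6 at −0.31. SRSF6, TRA2A and HNRNPH1 have an annotated stop-containing cassette exon, shown above, as do 19 of the 46 genes; counts per gene do not separate transcripts with and without it.

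These calls depended on single libraries and on entering siControl RPF replicates 2 and 3 separately. With siControl RPF replicates 2 and 3 summed, none of the 46 and 141 of all 13493 genes were called in edgeR. The 5 had adjusted p of 0.0626 to 0.111 in that edgeR fit, and 13 of the 46 had an unadjusted p under 0.05. DESeq2 with all libraries called 6 of the 46 and 392 of all 13395 genes. None of the 46 was called in edgeR either when replicate 1 of siControl Input, replicate 1 of siIGF2BP3 Input or any 1 siControl RPF library was left out. Over all genes 126 to 193 were then called, and 10 to 14 of the 46 had an unadjusted p under 0.05. With all libraries, 14 of the 46 and 2120 of all 13395 genes were at that p. In the other fits this was not counted over all genes. Between 1 and 4 of the 46 were called without replicate 2 or 3 of siControl Input, siIGF2BP3 Input or siIGF2BP3 RPF. In these fits 154 to 300 of all genes were called, with 13405 to 13537 genes tested. The sign of the 5 was the same in all 23 alternatives. Without siIGF2BP3 RPF replicate 1, the siIGF2BP3 RPF group again kept only libraries that differed by little more than sampling noise. In that fit 12 genes were called (26.1%, against 9.99% of all 13479 genes tested), 11 of them lower (5.58% of all genes). Besides the same 5, these were SRSF1, SRSF2, TRA2B, HNRNPA0, PTBP1 and U2AF2. PTBP3 was the 1 called higher (4.41% of all genes), at 0.24 ± 0.06 (adjusted p = 0.0129 in edgeR), and the 3 hnRNPs with lower Input, HNRNPK, HNRNPA3 and HNRNPA2B1, had TE differences of 0.05, 0.04 and 0.03 with all libraries.

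**Figure D5:**
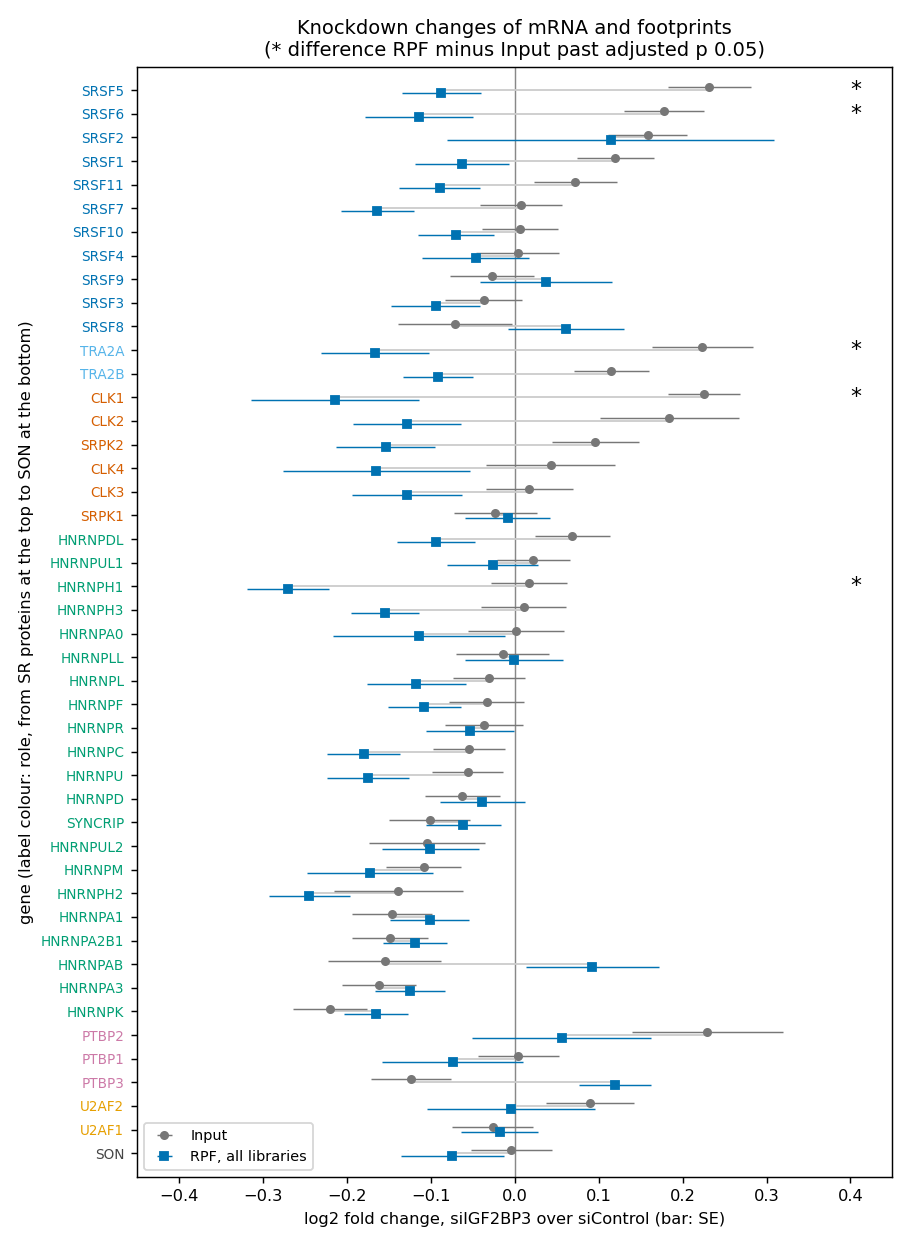
Log2 fold change of siIGF2BP3 over siControl (horizontal) in Input (grey circles) and in RPF with all libraries (blue squares), with SE bars, for each of the 46 genes grouped by role (label colours). Stars mark the 5 genes whose RPF change differed from the Input change in edgeR with all libraries. None was called with siControl RPF replicates 2 and 3 summed. In CLK1, TRA2A, SRSF5 and SRSF6 the Input point lies above 0 and the RPF point below 0.

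Other splicing genes were listed for comparison: 62 further regulators and core components, with 63 entries because MATR3 has a pair of identifiers, of which 60 were tested. In siControl, 42 of these 60 had a fitted RPF over Input below 0 on the log2 scale, and their median was −0.71. The median was −1.50 over the 6 kinases and 0.48 over all 20595 genes tested, so low values were not particular to the kinases. After knockdown, 14 of the 60 were called in Input (23.3%, against 5.96% of all genes), 12 higher and 2 lower. The higher ones were the U2 component SF3B1 (0.27 on the log2 scale), the SR-related proteins SRRM1 (0.21), ACIN1 and RBM39 (0.27), the RNA-binding proteins RBM5 (0.33) and RBM6 (0.33), LUC7L, LUC7L3, DDX39B, DYRK1A, MBNL2 and TIAL1. PUF60 and SNRNP70 were lower (−0.20 and −0.21). In RPF MBNL1 and MBNL2, regulators of exon choice in differentiation, were called (3.33%, against 1.66% of all genes), both higher, and 48 of 60 genes were below 0. MBNL1 footprints were at 16.5, 16.2 and 15.6 CPM in siControl and 19.8, 24.7 and 26.3 CPM in siIGF2BP3 (log2 fold change 0.58 ± 0.09, adjusted p = 0.0276 in edgeR), so every siIGF2BP3 library was higher. Neither gene was called in edgeR with siControl RPF replicates 2 and 3 summed, or without any 1 RPF library other than siIGF2BP3 replicate 1; without that one MBNL1 was at 0.66 ± 0.05 (adjusted p = 2.55e-05 in edgeR).

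In TE 9 entries of this list were called (15%, against 2.21% of all genes). With siControl RPF replicates 2 and 3 summed, 8 entries were called, and 141 of all 13493 genes. MBNL1 was higher (0.56), and LUC7L, RBM39, RBM5, RBM6, SF3B1, SRRM1 and both MATR3 entries were lower. RBM6 had the lowest value, with 397, 416 and 419 CPM in siControl Input and 561, 523 and 518 CPM in siIGF2BP3 Input, 29.3, 27.4 and 26.3 and 18.9, 24.7 and 24.8 CPM in RPF, and a TE difference of −0.58 ± 0.10 (adjusted p = 0.00355 in edgeR). Replicate 1 was the lowest siIGF2BP3 RPF library for RBM6, and without it the TE difference was −0.49 ± 0.07 (adjusted p = 9.14e-05 in edgeR), again the lowest of the list. LUC7L, RBM39, RBM5, RBM6, SF3B1 and SRRM1 had all been called higher in Input, as had CLK1, TRA2A, SRSF5 and SRSF6. Input enters both comparisons, so the TE call is not independent of the Input call. Without siIGF2BP3 RPF replicate 1 this list had 2 entries called higher and 27 lower in RPF (48.3%, against 16.5% of all genes). Of all genes, 7.97% were called higher and 8.57% lower in that fit. In TE, 2 entries were called higher and 18 lower (33.3%, against 9.99% of all genes). With siControl RPF replicates 2 and 3 also summed, these were 2 and 25 in RPF and 1 and 14 in TE. Over all genes, 3015 of 20898 were then called in RPF and 1079 of 13521 in TE.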

How the data were processed

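Groups and replicate numbers of the Input and RPF libraries of siControl and siIGF2BP3 HepG2 cells are those of the labels. Cutadapt (trimming), STAR (alignment to hg38) and featureCounts (counting by gene) were used by the authors, with versions and settings for shared or stranded reads not given in the sources used here. The deposited values are estimated counts, not scaled to depth, and many are fractions (31.8% to 33.3% of detected genes in an Input library, 63.2% to 66.0% in an RPF library), so genes with copies or overlapping neighbours are uncertain. They were rounded to whole numbers. Names and types came from GENCODE release 44 (99.1% of identifiers matched). No column of other samples had to be left out (0). Totals ran from 11219750 to 31510601 counts; without molecular identifiers, error was taken from the spread between libraries.

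Tests used edgeR 4.0.16 in R 4.3.3: quasi-likelihood fits with robust dispersions on all genes passing filterByExpr, TMM factors (within each assay for TE), and Benjamini-Hochberg adjustment over all genes tested at 0.05. The study's methods define TE as RPF over RNA and name DESeq2; the TE test here was the interaction of assay and knockdown, with DESeq2 1.42.0 as an alternative. P-values measure the spread between these libraries, which may be technical. SE is the log2 fold change over the root of its F statistic, and CPM uses library totals without TMM factors. Copies of a gene were the entries named after it as pseudogenes, and the U2AF1 duplicate.

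Named genes were those called in Input, RPF (also without siIGF2BP3 RPF replicate 1) or TE, and the 8 highest and 8 lowest ratios of RPF to Input; other members appear by level or count. The members, lists and tests were chosen with earlier results of these data known. Alternatives were DESeq2, RLE factors, omission of the filter, a minimum mean of 5 CPM, restriction to protein-coding genes, counts of copies added, a replicate block, siControl RPF replicates 2 and 3 summed, and each library left out; adding retrocopy genes, and summing together with leaving out siIGF2BP3 RPF replicate 1, were chosen after seeing the data. The fits were tested on simulated data with the same dispersion in every library. No simulated library stood apart and no pair was near-identical, so the simulation does not cover these features of the RPF libraries. Sequences are printed for some of the copied windows only.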

Additional observations from a re-analysis of the deposited data

Results flagged for a closer look

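For 5 genes the knockdown changed footprints differently from Input RNA by the interaction test of edgeR, and the difference RPF minus Input is given on the log2 scale. It was −0.43 for CLK1, −0.39 for TRA2A, −0.32 for SRSF5, −0.30 for SRSF6 and −0.29 for HNRNPH1. Their adjusted p, in the same order, were 0.0283, 0.0290, 0.0256, 0.0474 and 0.0395. Once siControl RPF replicates 2 and 3 were summed, the adjusted p ran from 0.0626 to 0.111, and without siIGF2BP3 RPF replicate 1 from 0.000165 to 0.00483.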

How the results depend on the processing

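The number of genes called in Input was within 1.5 times of 879 under every setting that kept all libraries (8 of the 46 splicing genes; 7 to 8 under the same settings). DESeq2 moved its split to 396 higher and 322 lower, from 598 and 281. RPF calls (336 genes, 1 of the 46) became 667 and 4 with DESeq2, 201 and 0 with protein-coding genes only, 14 and 0 with siControl RPF replicates 2 and 3 summed, and 3015 and 18 with these summed and siIGF2BP3 RPF replicate 1 left out. TE calls (296 genes, 5 of the 46) became 178 and 1 with no filter, 122 and 1 with a replicate block per culture, 141 and 0 with the summed libraries, and 1079 and 11 with the summed libraries and without siIGF2BP3 RPF replicate 1. Calls of RPF over Input in siControl (18980 genes) became 11817 with a mean of at least 5 CPM and 11334 with protein-coding genes only, as fewer genes were then tested.

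Leaving out 1 library gave 444 to 907 genes and 3 to 7 of the 46 in Input, 11 to 3410 and 0 to 22 in RPF, 126 to 1347 and 0 to 12 in TE, and 18660 to 19698 and 43 to 45 for RPF over Input in siControl. The highest RPF and TE values were without siIGF2BP3 RPF replicate 1. In RPF, U2AF2 changed sign from −0.0046 to 0.0077 with a mean of at least 5 CPM, 0.0015 with protein-coding genes only, 0.00041 with the summed libraries, and 0.066 and 0.053 without siIGF2BP3 RPF replicate 2 or 3 (range with 1 library left out −0.14 to 0.066). SRSF2 changed sign from 0.11 to −0.17 without siIGF2BP3 RPF replicate 1 and −0.18 with the summed libraries as well (range with 1 library left out −0.17 to 0.25). The cause was not tested. Over all named genes and alternatives, 672 values kept their sign and side of the threshold, 93 lost the call, 39 gained one and 7 changed sign.

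Replicate numbers are shared between groups, but nothing in the labels says what they mark, and deviations of same-numbered samples correlated at 0.061, 0.005 and −0.042 in Input and 0.159, 0.112 and 0.039 in RPF, so they were not taken as pairs. With the replicate block, 931 genes and 8 of the 46 were called in Input, 379 and 0 in RPF, 227 and 4 in TE, and 18950 and 44 for RPF over Input in siControl. In DESeq2, 6581 genes in Input, 3136 in RPF and 4675 in TE had no adjusted p and count neither way.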
